A study of Mus musculus with 6 samples.

Results

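The trimethylation of histone H3 at lysine 4 (H3K4me3) was mapped by ChIP-seq across the genome of mouse pre-B cells, the bone marrow stage at which the light chain genes of the antibody are assembled. The deposited list held 782636 bins of 25 bp on the mouse assembly mm9 and no score. Bins separated by at most 100 bp were joined, which gave 17979 regions. The 16 regions inside the Vκ gene array on chromosome 6 were left out, so that 17963 regions are described here. They are 1 of 3 lists of the experiment, beside 69345 H3K27ac peaks and 15445 Pax5 peaks from the same kind of cells.

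The cells came from the bone marrow of C57BL/6 mice of 6 to 14 weeks, males and females together, that lacked RAG and carried a rearranged IgM transgene (RAG-/- µ+). The 3 lists share this genotype. RAG deficiency stops antibody gene rearrangement and the transgene lets cells pass to the pre-B stage, so these cells had reached that stage with a transgenic heavy chain and unrearranged light chain loci. H3K4me3, H3K27ac and Pax5 were each represented by 1 library, so no spread between replicates could be measured and no test between groups was possible. The number of reads behind the list is unknown, and an unlisted start is one where no bin was listed, which does not show that the mark was absent.

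H3K4me3 is placed by the SET1 and MLL methyltransferase complexes on nucleosomes at the beginning of transcribed genes. The CXXC1 subunit of the SET1 complex binds unmethylated CpG, and proteins such as TAF3, a subunit of the general transcription factor TFIID, bind the mark itself. H3K4me3 covers most promoters rich in CpG in any cell, and it reaches furthest into the gene at genes of cell identity. CpG content is given below as the observed/expected ratio, the number of CG dinucleotides relative to the number that the C and G content of the sequence would give by chance, so that low values mean that CG is depleted.

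The sequences 200 bp upstream of 8 starts show the extremes of CpG content among marked and unmarked starts, not typical ones. They are the starts with the 2 highest and the 2 lowest CpG ratios among the listed B-lineage, ubiquitous and organ-specific genes, 4 with a region and 4 without, read from NCBIM37 (mm9) in the direction of transcription with each CG in capitals. Foxo1 (chr3:52072059-52072258, plus strand) and Bach2 (chr4:32325579-32325778, plus strand), both transcription factors of early B cells, were marked and held 15 and 27 CG. Spib (chr7:51787442-51787641, minus strand), an Ets factor, and Il7r (chr15:9459632-9459831, minus strand), the receptor of interleukin 7, were marked too and held 2 and 1 CG.
Foxo1: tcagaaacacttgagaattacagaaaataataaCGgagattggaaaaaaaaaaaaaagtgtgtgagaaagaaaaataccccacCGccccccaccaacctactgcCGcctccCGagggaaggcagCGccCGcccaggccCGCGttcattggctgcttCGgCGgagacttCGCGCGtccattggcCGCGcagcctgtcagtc
Bach2: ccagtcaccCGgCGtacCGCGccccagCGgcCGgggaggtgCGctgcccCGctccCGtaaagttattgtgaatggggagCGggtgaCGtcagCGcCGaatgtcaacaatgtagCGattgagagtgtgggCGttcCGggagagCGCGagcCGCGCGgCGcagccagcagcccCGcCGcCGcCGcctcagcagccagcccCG
Spib: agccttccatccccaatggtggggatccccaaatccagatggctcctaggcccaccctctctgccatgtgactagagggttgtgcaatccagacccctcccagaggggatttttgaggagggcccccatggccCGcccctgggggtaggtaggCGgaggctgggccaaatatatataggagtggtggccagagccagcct
Il7r: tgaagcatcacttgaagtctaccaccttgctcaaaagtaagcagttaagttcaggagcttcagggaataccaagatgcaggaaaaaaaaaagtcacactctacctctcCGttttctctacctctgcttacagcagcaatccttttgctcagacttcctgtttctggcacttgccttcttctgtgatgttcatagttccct
Neurog1 (chr13:56353525-56353724, minus strand) and Neurod1 (chr2:79296909-79297108, minus strand), factors of neurons and endocrine cells, held 20 and 13 CG and had no region. Myh6 (chr14:55585765-55585964, minus strand), a myosin of heart muscle, held 0 CG. Igll1 (chr16:16864079-16864278, minus strand), a component of the surrogate light chain of the pre-B cell receptor, held 1 CG.
Neurog1: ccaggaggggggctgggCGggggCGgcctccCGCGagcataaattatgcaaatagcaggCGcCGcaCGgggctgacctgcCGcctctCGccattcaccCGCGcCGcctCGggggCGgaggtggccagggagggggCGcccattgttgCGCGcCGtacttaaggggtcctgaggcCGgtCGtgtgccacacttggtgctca
Neurod1: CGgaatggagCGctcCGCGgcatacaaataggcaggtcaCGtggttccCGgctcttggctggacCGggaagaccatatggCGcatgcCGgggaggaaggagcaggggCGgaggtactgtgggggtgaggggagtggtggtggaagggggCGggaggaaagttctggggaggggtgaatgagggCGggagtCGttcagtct
Myh6: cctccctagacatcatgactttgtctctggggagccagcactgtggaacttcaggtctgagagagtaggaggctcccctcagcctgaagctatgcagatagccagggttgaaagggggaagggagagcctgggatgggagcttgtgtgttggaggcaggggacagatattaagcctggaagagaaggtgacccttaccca
Igll1: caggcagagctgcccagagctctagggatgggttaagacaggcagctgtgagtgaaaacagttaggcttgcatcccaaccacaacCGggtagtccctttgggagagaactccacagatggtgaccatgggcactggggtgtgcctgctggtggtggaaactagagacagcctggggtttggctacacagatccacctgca
The choice put CG-rich and CG-poor sequences on both sides. The B-lineage genes Spib and Il7r carried regions of 4775 and 3175 bp at CG-poor starts, whereas the CG-rich starts of Neurog1 and Neurod1 had none.

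The regions together spanned 19.8 Mb, 0.746% of the 21 chromosomes. Their median width was 1025 bp, with quartiles at 375 and 1600 bp, and 95% of them were no wider than 2525 bp. The widest region measured 9700 bp and covered the start of Pax5. A single bin made up 769 regions (4.28%). When only touching bins were joined the median width fell to 625 bp in 23218 regions, since 3984 regions (22.2%) held a gap. In classes of 200 bp the widths had a minimum between 400 and 800 bp, with narrower and wider regions on either side. Single bins were the most frequent of the narrow widths, and a local peak stood at 325 bp, the width of 551 sets of touching bins against 176 to 291 at the 4 neighbouring widths from 275 to 375 bp. Regions of 325 bp lay near a coding start in 33.8% of cases and those of the 4 neighbouring widths in 29.8%.

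**Figure D1:**
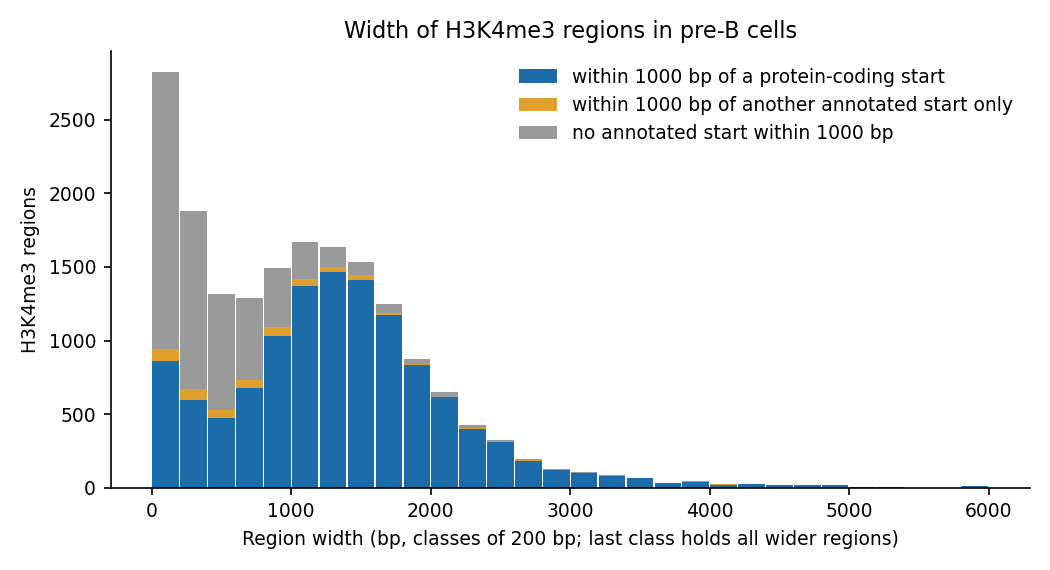
Histogram of the width of the 17963 H3K4me3 regions in classes of 200 bp on the horizontal axis, with the number of regions on the vertical axis and colours for their position. Narrow regions lay mostly away from annotated starts, and those over 1000 bp lay mostly within 1000 bp of a protein-coding start.

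Of the regions, 11958 (66.6%) lay within 1000 bp of the start of a protein-coding transcript, and these held 84.1% of the base pairs. Their median width was 1350 bp. A further 493 regions (2.74%) lay near the start of another kind of gene only, with a median width of 775 bp, and 5512 (30.7%) lay near no annotated start, with a median width of 325 bp. The share near a coding start was 31.2% for regions of up to 100 bp, 53.2% for those of more than 400 and up to 1000 bp, 89.8% for those of more than 1000 and up to 2000 bp and 92.8% for the 138 regions of more than 4000 bp. A coding start lay inside 10359 regions (57.7%). Most regions near coding starts, 10525, served 1 coding gene, and 1433 served 2 or more.

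Width also went with the other lists. An H3K27ac peak, a mark of active promoters and enhancers, overlapped 56.6% of the regions of up to 100 bp and 99.3% of those over 4000 bp. A peak of Pax5, the factor that commits cells to the B lineage, overlapped 20.7% and 97.1%, respectively. A wide region has more room to overlap a peak, and this part of the increase was not separated. The CpG ratio of the middle 500 bp rose from a median of 0.33 in the narrowest class to 0.84 in regions of more than 2000 and up to 4000 bp, and was 0.62 in those over 4000 bp. The middle of a wide region can lie far from the start. At Pax5 the ratio was 0.0 in the middle and 0.52 around the start, and at Btg1 0.27 and 0.84.

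The 20 widest regions at coding genes included several known regulators of lymphocytes. The region of Pax5 extended from -3017 to +6682 bp relative to its start (chr4:44717636-44727335). Tnrc18, a large nuclear protein with little known function, followed with 9200 bp on chromosome 5. Bcl11a, a zinc finger factor required for lymphoid development, shared a region of 7050 bp on chromosome 11 with the neighbouring A830031A19Rik. Brd2, a bromodomain protein that binds acetylated histones, had 6825 bp. Pde4b, a cAMP phosphodiesterase, and Zfp516 had 6275 bp each, and the region of Pde4b lay at an internal start and began 481013 bp downstream of the first. The transcriptional repressors Tgif1 and Irf2bp2 had 6250 and 6175 bp. Il16, a chemoattractant cytokine of lymphocytes, had 6000 bp at an internal start.

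Blnk, the adaptor that couples the pre-B cell receptor to its kinases, had 5600 bp, from -1760 to +3839 bp. The antiproliferative gene Btg1 had 5925 bp, and Setd1b, itself an H3K4 methyltransferase, had 5875 bp. Vars and D17H6S56E-5 shared a region of 5950 bp, and Marcks and 5930403N24Rik one of 5500 bp. The remaining members were Plekha2 (5775 bp), Smad7 (5625 bp), Dusp6 (5350 bp), Rhoh (5350 bp), Zeb2 (5325 bp) and Ppp1r15b (5300 bp). Smad7 and Dusp6 are feedback inhibitors of TGF-β and ERK signalling, and Rhoh is a GTPase of blood cells. All 20 overlapped an H3K27ac peak, and all but those of Pde4b and Setd1b a Pax5 peak.

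Antibody loci held 2 regions of similar width. The third widest of all, 8300 bp on chromosome 12 (chr12:114661636-114669935), lay within 1000 bp of the annotated JH segments and of Ighm, the µ constant gene. The sixth widest, 6425 bp on chromosome 6 (chr6:70668771-70675195), lay within 1000 bp of Igkj1 to Igkj5, the J segments to which Vκ genes are joined. The loci are annotated as IG genes, and the nearest protein-coding start was 6541 bp away in the first case and 48491 bp in the second. The part of the IgM transgene in the reads at the heavy chain locus was not tested.

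Around the starts the mark lay mostly on the transcribed side. Profiles were taken around the most upstream start of the 11848 coding genes with a region within 1000 bp of any of their starts, 53.0% of coding genes. The share of starts covered rose from 15.2% at 1000 bp upstream and 50.4% at 500 bp upstream to 86.3% at the start, reached its maximum of 88.4% between +150 and +175 bp, and was 82.1% at +500 bp and 37.5% at +1000 bp. Within 2000 bp on each side, 62.3% of the covered base pairs lay downstream. The median gene had 500 bp covered upstream and 877 bp downstream, and 75% of genes had more downstream than upstream. Of the genes, 3.8% had no bin within 2000 bp of this start, and their region lay at a later start. With all distinct starts of the same genes, the downstream share was 54.8%.

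The skew depended on the neighbouring genes. For the 7056 genes with no start of another gene within 5000 bp, 67.2% of the covered base pairs lay downstream, and 83.2% of these genes had more downstream than upstream. Where a region covered such a start, its edges lay at medians of 467 bp upstream and 927 bp downstream. For the 1884 genes with a coding gene starting within 1000 bp upstream on the other strand, 46.8% lay downstream and the direction was the opposite. Their region edges lay at medians of 944 bp upstream and 833 bp downstream. What lies upstream of such a start lies downstream of its neighbour.

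**Figure D2:**
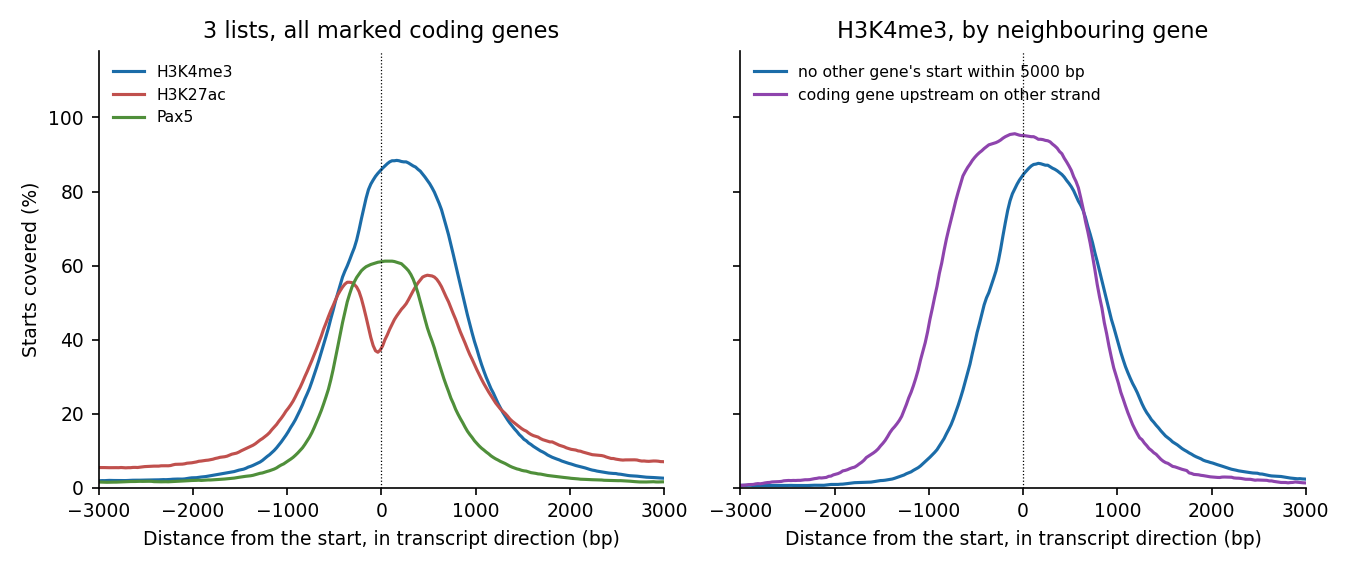
Percentage of coding starts covered (vertical axis) by distance from the most upstream start in the direction of transcription in bp (horizontal axis, 25-bp steps). Left, H3K4me3, H3K27ac and Pax5 at the 11848 genes with an H3K4me3 region; right, H3K4me3 at 7056 genes without and 1884 genes with a close neighbour, where the first curve leans downstream and the second is broad on both sides.

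At the same 11848 starts the other lists had different shapes. H3K27ac peaks covered 50.7% of the genes at 500 bp upstream, 38.3% at the start itself and 57.3% at +500 bp, with a dip at the start that H3K4me3 did not have. Pax5 peaks covered 61.1% at the start, 35% at 500 bp upstream and 41.3% at +500 bp. The downstream shares within 2000 bp were 55.6% for H3K27ac and 54.8% for Pax5. The starts were chosen by H3K4me3, and the lists differ in how they were made, so the heights of the curves are not comparable between lists. Gaps inside H3K4me3 regions were rare at every position, with a maximum of 0.778% of starts between -275 and -250 bp.

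Among genes with no close neighbour, the skew was related to width and to CpG content. It was 77.6% downstream for the 488 genes with regions of up to 400 bp, 67% for regions of more than 1000 and up to 2000 bp and 60.7% for the 84 genes with more than 4000 bp, although in the last class the median gene was covered over all 2000 bp downstream. Base pairs beyond 2000 bp were not counted, so the window limited the downstream share of wide regions. This part of the difference between widths was not separated. By CpG ratio the downstream share was 85.4% below 0.2 and 64.1% at 0.8 or more. At the lowest ratios 54.8% of 263 genes had more downstream than upstream, against 86.0% at the highest. The median gene of this lowest class had 0 bp covered upstream and 166 bp downstream. The other genes of the class include any with no bin within 2000 bp of this start, so they need not lean upstream.

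Of 37158 annotated genes outside the Vκ region, 13437 (36.2%) had a region within 1000 bp of a start. Among protein-coding genes the count was 11848 of 22361 (53.0%, 95% Wilson interval 52.3 to 53.6), and among long intergenic noncoding RNA (lincRNA) genes it was 668 of 1273 (52.5%, 49.7 to 55.2). Processed transcripts, the noncoding RNAs of the manual annotation that were not classed as lincRNA genes, were marked in 417 of 2572 cases (16.2%). Of the pseudogenes 126 of 5200 were marked (2.42%, 2.04 to 2.88). The shares were 8.38% for 1575 microRNA, 8.34% for 1547 snoRNA and 4.43% for 1423 snRNA genes. These intervals cover counting error only, and neighbouring genes that share a region are not independent.

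Within each noncoding class the share differed by where the genes lay. Next to a coding start, the region of the coding gene can also count for the noncoding gene. Such shared regions were not separated. Of the 629 lincRNA genes with a coding start within 1000 bp, 75.2% were marked, against 33.5% of 161 with the nearest one over 1000 and up to 5000 bp away and 29.2% of 483 with none within 5000 bp. Of the 411 of the first kind that ran away from a coding gene on the other strand, 80.8% were marked. For processed transcripts the 3 shares were 53.3%, 15.2% and 5.67%, for microRNA genes 53.5%, 14.1% and 2.19%, and for snRNA genes 59.5%, 7.06% and 2.38%. Among pseudogenes they were 36.1%, 4.91% and 0.953%. At lincRNA genes close to a coding start 43.0% of the covered base pairs lay downstream of the noncoding start, and at those with none within 5000 bp 59.9%, so that these isolated genes leaned in the same direction as coding genes.

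**Figure D3:**
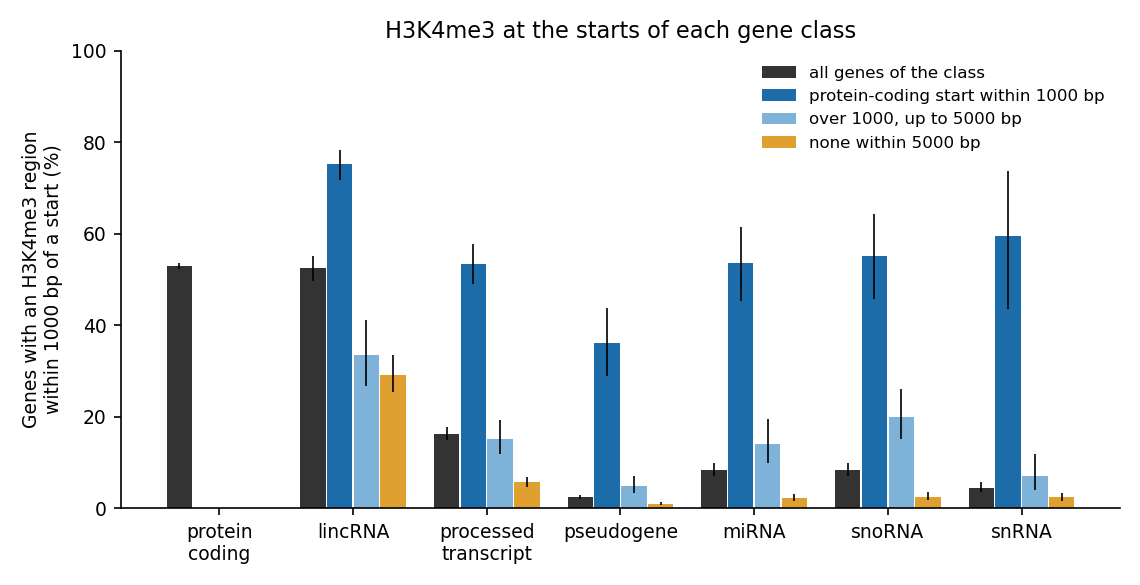
Percentage of genes with an H3K4me3 region within 1000 bp of a start (vertical axis) for 7 classes of genes, all genes of the class and by distance to the nearest protein-coding start. Error bars are 95% Wilson intervals. In every noncoding class shown the share was highest next to a coding start, where the region of the coding gene can count for both. For lincRNA genes it was 29.2% where no coding start lay within 5000 bp.

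The share of lincRNA genes depended on the annotation. It was 46.3% for 751 genes from the automatic and 61.3% for 522 genes from the manual annotation, and with none of the coding starts within 5000 bp 22.5% and 44.8%, respectively. When the 870 processed transcript genes that hold a lincRNA transcript were added, it fell to 34.3%, since 7.82% of these were marked. The isolated lincRNA gene with the widest region was A430072P03Rik with 4475 bp on chromosome 5. Dleu2, the host of a microRNA cluster deleted in human B cell leukaemia, had 4025 bp, Gm16956 2675 bp, Xist 2325 bp and 4833417C18Rik 2200 bp. Xist, which silences the inactive X chromosome in females, had a region from +21 to +2345 bp, in a preparation of both sexes.

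Of 20 long noncoding RNAs with known names, 16 were found in the annotation and 12 of these had a region, against 52.5% of all lincRNA and 16.2% of all processed transcript genes. Malat1, an abundant nuclear RNA, had 5850 bp, and Neat1, the scaffold of paraspeckles, 3075 bp. The growth arrest RNA Gas5 had 2525 bp, Mir17hg, the host of the miR-17 cluster that promotes B cell survival, 2450 bp, and Tug1 1875 bp. The snoRNA hosts Snhg1, Snhg3, Snhg5 and Snhg12 had 1275 to 2025 bp. Firre, annotated as 6720401G13Rik, had 725 bp. The imprinted genes Meg3 and H19, Miat and Hotair (annotated as Gm16258) had none.

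Of the 126 marked pseudogenes, 86 were found in RefSeq, 28 of them as protein-coding and 15 as noncoding RNA genes. Another 34 are pseudogenes and 8 transcribed pseudogenes there. By source, 14.4% of 464 automatic and 1.25% of 4736 manual entries were marked. RefSeq (assembly GRCm38.p6, used for names only) has 3590 of the 5200 by symbol or synonym, 191 of them as protein-coding genes, and these were marked in 14.7% of cases. Those that RefSeq also gives as pseudogenes, 3191, were marked in 1.07% of cases. Of the 43 marked pseudogenes with no coding start within 5000 bp, 10 are protein-coding in RefSeq. Among the 5 widest of them were Kctd12 with 3150 bp and Frat1 with 2350 bp. B330016D10Rik with 2750 bp is a noncoding RNA in RefSeq, Gm15488 with 1900 bp is a pseudogene there, and Gm12250 with 1775 bp is coding. Cebpd, a C/EBP factor of inflammation, and Chmp1b, an ESCRT-III protein, were also among the 10, with 1750 and 1625 bp.

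Repeated sequence can limit what is seen in some classes, since the study's methods discarded reads with more than 3 best positions. Whether the deposited list was made with this rule is not given. At least 90% of the 36-mers around a start occurred at most 3 times in the genome for all but 9.52% of coding genes, 6.68% of lincRNA genes and 40.2% of pseudogenes. Among genes that met this limit, the shares marked were 56.9%, 55.5% and 3.47%. Among those that did not, they were 15.8%, 10.6% and 0.861%. The order of the classes was the same in both. Starts with up to 3 copies met the limit, and the study's methods allowed reads with up to 3 best positions. Such a start could thus be marked by reads of another copy, which was not tested.

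Marked and unmarked coding genes differed in CpG content. The ratio was read at the most upstream start, whereas a region at any start made a gene marked. By the most upstream start alone 50.6% of coding genes were marked, against 53.0%. The median CpG ratio within 500 bp of the most upstream start was 0.74 for marked and 0.23 for unmarked coding genes. The share marked rose from 4.37% of 1556 genes with a ratio below 0.1 to 41.3% at 0.4 to 0.5, 78.5% at 0.6 to 0.7 and 94.5% of 420 genes at 1.0 or more. The median width was 1100 to 1237 bp in the 4 classes below 0.4, 1075 bp at 0.4 to 0.5 and 1950 bp in the top class, so that it rose over the upper part of the range only. In lincRNA genes the shares were 3.12% below 0.1, 42.5% at 0.4 to 0.5 and 77.1% at 0.6 to 0.7. In pseudogenes they stayed at 2.05% at 0.4 to 0.5 and reached 66.7% of 36 genes at 0.9 to 1.0. There were 388 unmarked coding genes with a ratio of 0.8 or more and 378 marked ones below 0.2. The latter include genes such as Dpy30, whose region lay at a later start, and these were not separated.

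**Figure D4:**
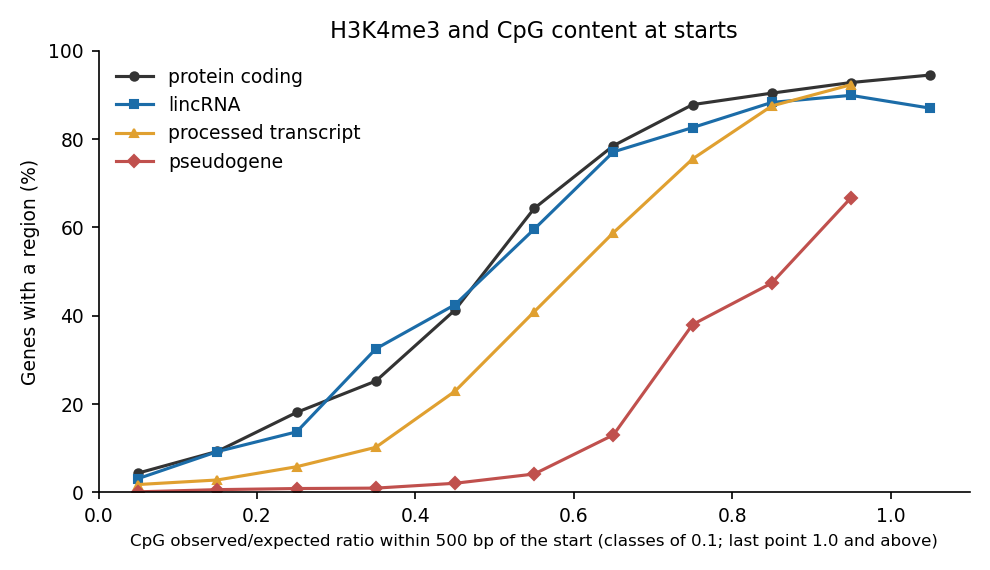
Percentage of genes with an H3K4me3 region (vertical axis) by CpG observed/expected ratio within 500 bp of the most upstream start (horizontal axis, classes of 0.1 with at least 20 genes) in 4 classes of genes. The curves of coding and lincRNA genes ran close together, that of processed transcripts lay below them up to 0.8, and that of pseudogenes was lowest.

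Short promoter elements were counted on both strands, with no element contained in another. The sequence was the 200 bp upstream of the most upstream start of 22356 coding genes. A promoter is called marked here if its gene had a region at any start. Some marked promoters thus had a region at a later start only, and these were not separated. The TATA box letters TATAAA occurred in 10.0% of all, in 4.46% of marked and in 16.3% of unmarked promoters. At CpG ratios under 0.5 the shares were 7.59% of 1844 marked and 18.6% of 8586 unmarked promoters. The GC box GGGCGG, bound by Sp1, occurred in 38.0% of all, 56.3% of marked and 17.4% of unmarked promoters. It occurred in 23.7% and 9.54% at ratios under 0.5 and in 62.3% and 52.2% at 0.5 or more. The Ets letters CCGGAAG occurred in 7.59% of all promoters and, at ratios of 0.5 or more, in 14.2% of 10002 marked and 2.39% of 1924 unmarked ones. In the same classes the letters ACTACAA, part of the ZNF143 site, occurred in 3.68% and 0.728%, against 2.75% of all, and the NRF1 letters GCATGCGC in 4.75% and 1.87%, against 2.55% of all. The CREB letters TGACGTCA occurred in 3.08% and 1.51% (1.83% of all), and the E-box CACGTG in 7.98% and 6.81% (5.58% of all). The NF-Y letters CCAAT, found in 30.6% of all promoters, occurred in 32.9% and 24.6%. At ratios under 0.5 marked promoters did not hold CCAAT or TGACGTCA more often, with 27.9% and 29.9% for the first and 0.651% and 0.71% for the second. A match is a description of the letters and does not show binding.

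Gene families ranged from no marked member to nearly all. None of the 1113 olfactory receptor (Olfr), 203 Vmn1r and 119 Vmn2r pheromone receptor genes was marked, and without these 1435 genes the share of coding genes rose to 56.6%. The median CpG ratio of these families was 0.13. The start sequence was repeated in 41.9% of Vmn1r and 30.3% of Vmn2r genes, where reads could be lost, and in 4.31% of Olfr genes. For Krtap genes this share was 26.1%. None of 46 keratin-associated (Krtap) and 41 beta-defensin (Defb) genes was marked, and of 51 keratin (Krt) genes only Krt18 and Krt222. The Cyp genes, monooxygenases of steroid and drug metabolism, were marked in 16 of 98 cases (16.3%), and solute carriers (Slc) in 192 of 355 (54.1%), close to the 53.0% of all coding genes. Zinc finger genes (Zfp) were marked in 277 of 371 cases (74.7%). Proteasome genes (Psm) were marked in 49 of 52 cases (94.2%), without Psma8, Psmb11 and Psme2b-ps. Psma8 belongs to the proteasome of the testis and Psmb11 to that of the thymus cortex. Genes whose symbols begin with Rpl or Rps were marked in 90 of 150 cases (60%). They were marked in 85 of the 98 with few copies of the start sequence (86.7%) and in 5 of the other 52 (9.62%). This set was taken by symbol and can include genes that do not encode ribosomal proteins.

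Lists of lineage genes were used to check the label of the cells. Of 30 B-lineage genes 27 (90%) had a region, against 53.0% of all coding genes, and the median width at these was 3850 bp against 1475 bp. 26 of these were wider than that median and 12 were over 4000 bp. All 27 overlapped an H3K27ac peak and 26 a Pax5 peak, against 98.0% and 87.5% of all regions of more than 2000 and up to 4000 bp. The CpG ratio was under 0.4 at 17 of the 30, of which 14 were marked, whereas coding genes at 0.3 to 0.4 were marked in 25.2% of cases with a median width of 1100 bp. The lists were made from known genes of each lineage with earlier results of the same data in view, so these counts describe the lists and are no test.

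The signalling chains of the B cell receptor Cd79a and Cd79b had regions of 4000 and 4075 bp, from -270 to +3729 bp and from -269 to +3805 bp. Both began near the start and ran far into the gene, at CpG ratios of 0.33 and 0.18. Syk, the kinase that binds these chains and is annotated as Sykb, had 5175 bp, and the kinases Lyn and Btk 2375 and 2175 bp. Btk, on chromosome X, was the marked B-lineage gene without a Pax5 peak. The inhibitory coreceptors Cd22 and Cd72 had 1575 and 2050 bp. Spib had 4775 bp, from -338 to +4436 bp, at a ratio of 0.09, the lowest of the list.

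Factors that specify the lineage were marked over wide stretches. Ebf1 had 4325 bp, Ikzf1 4250 bp, Tcf3, which encodes E2A, 3850 bp, Foxo1 4275 bp and Bach2 4350 bp. Lef1 had 3825 bp, the coactivator Pou2af1 3500 bp and Ikzf3, which encodes Aiolos, 2875 bp. Irf4 and Irf8, needed for the pre-B stage, had 2500 and 2125 bp. The recombinase genes Rag1 and Rag2 had 4700 bp, from -490 to +4209 bp, and 1700 bp, in cells that lack RAG protein function. The study's methods name Rag1-/- mice with a human heavy chain transgene, and the labels of these libraries say RAG-/- and an IgM transgene without naming the gene or its species. Cd93 and Cd24a, surface proteins of immature B cells, had 4650 and 4625 bp.

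Unmarked B-lineage genes were Igll1, Vpreb2 and Ms4a1. Vpreb1, which pairs with Igll1 in the surrogate light chain, had the narrowest region of the list, 1325 bp, and this was also the region nearest to the start of Igll1, 6425 bp away. Vpreb2 lay 51587 bp from the nearest region. Ms4a1 encodes CD20, which rises on mature B cells, and lay 26842 bp from the nearest region.

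**Figure D5:**
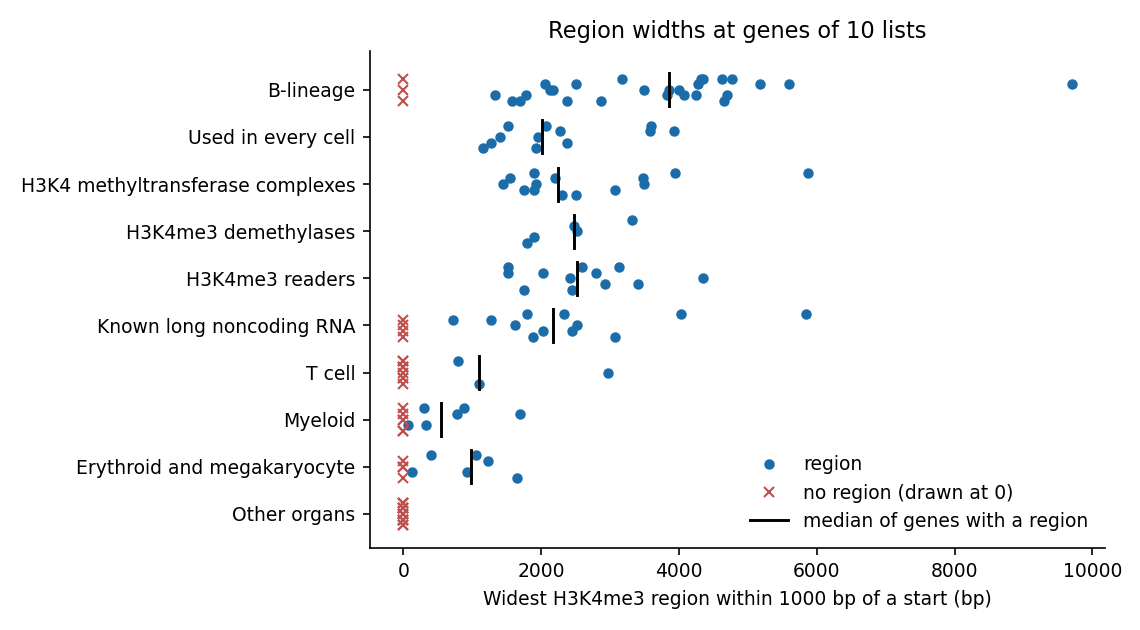
Width in bp of the widest H3K4me3 region within 1000 bp of a start (horizontal axis) for every gene found of 10 lists (vertical axis), without the list chosen for alternative starts. Each point is a gene, crosses at 0 are genes without a region, and bars are medians over genes with one. Of the lists drawn, B-lineage genes had the widest median, 3850 bp, and the myeloid, erythroid and T cell regions were narrower.

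Genes of other organs were unmarked in 14 of 14 cases, among them Alb of liver, Myod1 of muscle, Ins2 of the pancreatic islet and Cdx2 of the gut. Of 12 T cell genes 3 (25%) had a region, Tcf7 with 800 bp at its start, and Lck and Gata3 with 1100 and 2975 bp at internal starts, in regions that began 16525 and 10238 bp downstream of the first start. The CD3 genes, Cd4, Cd8a and Cd8b1 had none, nor had Bcl11b, whose CpG ratio was 0.79. An H3K27ac peak overlapped the region of Lck only, and a Pax5 peak that of Gata3 only.

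Markers of other bone marrow cells were marked in shares near the 53.0% of all coding genes, although coding genes with CpG ratios of 0.2 to 0.3, where the medians of these lists lay, were marked in 18.1% of cases. Of 12 myeloid genes 6 (50%) had a region, with a median of 550 bp. They were the C/EBP factor Cebpa (1700 bp), Cd14 (875 bp), the integrin Itgam (775 bp), Csf1r (325 bp), S100a8 (300 bp) and Lyz2 (75 bp), of which 5 overlapped an H3K27ac peak and 0 a Pax5 peak. Mpo, Elane, Csf3r, Ly6g, S100a9 and Cebpe had none. Of 10 erythroid and megakaryocyte genes 6 (60%) had a region, with a median of 987 bp. H3K27ac overlapped each of these 6 and Pax5 0, against 81.1% and 63.0% of all regions near coding starts. Among all regions of more than 400 and up to 1000 bp, the class of both list medians, 71.7% overlapped H3K27ac and 37.5% Pax5. The 6 genes included Tal1 (1650 bp), Klf1 (1225 bp), Epor (1050 bp), Itga2b (400 bp) and Slc4a1 (125 bp), whereas Gata1, Hbb-b1, Pf4 and Gp9 had none. The regions of Itga2b and Slc4a1 lay at later starts and began 2416 and 1947 bp downstream of the first. By the most upstream start alone 4 of the 10 genes had a region. Regions of both lists ranged from 75 to 1700 bp and those of the B-lineage list from 1325 to 9700 bp. The part of other cells in the preparation was not tested.

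Genes used in every cell were marked in 12 of 12 cases with a median of 2012 bp. Their median CpG ratio was 0.77, and 87.8% of all coding genes at 0.7 to 0.8 were marked. Actb, cytoplasmic actin, had 3600 bp, B2m, the light chain of MHC class I, 3925 bp, and Ywhaz 3575 bp. Eef2, an elongation factor, had 1400 bp, Sdha 1275 bp and Hprt 1150 bp. Gapdh had 2375 bp at a CpG ratio of 0.29, the only one of these under 0.4.

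The listed genes of H3K4 methyltransferase complexes, of histone demethylases and of H3K4me3 readers were all marked. Among 14 genes of the methyltransferase complexes the median width was 2250 bp. The catalytic subunits ranged from Wbp7 (2200 bp) and Setd1a (2300 bp) over Mll2 (3475 bp), Mll3 (3500 bp) and Mll1 (3950 bp) to Setd1b (5875 bp). The shared core subunits were narrower, with Wdr5 at 1925 bp, Ash2l at 1900 bp, Rbbp5 at 1750 bp and Dpy30 at 1450 bp. Cxxc1, the subunit that binds CpG, had 1550 bp, Men1 2500 bp and Hcfc1 3075 bp. The demethylases Kdm5a, Kdm5b, Kdm5c, Kdm2a and Kdm2b had 1800 to 3325 bp, and 12 readers had a median of 2525 bp, from 1525 bp at Ing4 and Ing5 to 4350 bp at Ing1. CpG ratios were high in these lists, with medians of 0.81, 0.82 and 0.89, and 91.5% of all coding genes at 0.8 or more were marked. At Ash2l, Dpy30, Men1 and Kdm2b the widest region lay at a later start.

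Alternative starts were often marked selectively. Of 4647 coding genes with protein-coding starts more than 2000 bp apart, 2260 (48.6%) were marked at the first group of starts only, 380 (8.18%) at a later group only, 468 (10.1%) at the first and a later one, and 1539 (33.1%) at none. Runx1 was marked at both promoters, 128738 bp apart, with 2400 bp at the first and 2300 bp at the second. Foxp1 was marked at the first and the last of 4 groups, 237573 bp apart, with 3525 and 3300 bp. Bach2 was marked at the first of 3 groups. Erg, a factor of blood stem cells and megakaryocytes, was marked at the fourth of 5 groups alone, with 3925 bp at a start 127245 bp downstream of the first. Ets1 was marked at the second of 2 groups, with 2850 bp. In Ikzf1 and Lef1 the first groups shared 1 region, so that the list does not separate them. Pax5, Ebf1, Bcl6, Ikzf3 and Myb have 1 group of starts in this annotation, and all had a region.

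The share of marked genes differed by the kind of neighbour, and a single region can count for both neighbours. Coding genes with a coding start within 1000 bp upstream on the other strand were marked in 1884 of 2027 cases (92.9%), with a median width of 1800 bp. With a lincRNA or processed transcript in that position the share was 78.4% of 501 genes, and with neither it was 48.3% of 19833, with a median width of 1400 bp. The median CpG ratios of the 3 kinds were 0.77, 0.76 and 0.48, and 87.8% of all coding genes at 0.7 to 0.8 were marked.

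Chromosomes differed in density and in the share of genes marked. Density ranged from 12.5 regions per Mb on chromosome 11 to 3.22 on X, with 2 regions on Y. Among autosomes, the share of coding genes was highest on chromosomes 11 and 12 (61.2% each) and lowest on 14 (41.1%), where 25.6% of genes had a repeated start sequence. On X it was 39.1% of 932 genes. Outside the receptor families and among genes with few copies of the start sequence, it was 49.4% of 722 genes on X (95% Wilson interval 45.8 to 53.1) and 61.2% of 18236 on autosomes (60.4 to 61.9). At like CpG ratios the values were closer, 17.6% and 19.1% below 0.4, 59.2% and 56.8% at 0.4 to 0.6 and 83.2% and 84.2% at 0.6 to 0.8. At 0.8 or more they were 77.2% of 57 genes (64.8 to 86.2) and 92.0% of 4404 (91.1 to 92.7). Regions at these genes had a median of 1225 bp on X and 1500 bp on autosomes.

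Regions away from starts were narrower and poorer in CpG. Of the 5512 regions near no annotated start, 2840 (51.5%) were intergenic, 2071 (37.6%) lay in introns and 601 (10.9%) overlapped an exon. An H3K27ac peak overlapped 77.1% of them, against 81.1% of regions near coding starts, and a Pax5 peak 32.2% against 63.0%. Their median CpG ratio was 0.37 against 0.78. More than 10000 bp from every annotated start lay 2778 regions (15.5%), with a median width of 350 bp, of which 78.7% overlapped H3K27ac.

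The widest of these measured 5125 bp (chr7:16630880-16636004), 21287 bp from the nearest start, that of Zfp541, and had a CpG ratio of 0.97 in its middle 500 bp. The next measured 4425 bp on chromosome 15 and lay 59308 bp from St3gal1, a sialyltransferase. A region of 4050 bp on chromosome 3 lay 10617 bp from a U1 snRNA gene. A region of 3875 bp on chromosome 6 lay in an intron of Eif4e3, and one of 3500 bp on chromosome 19 lay 23270 bp from Olfr1423. All 5 overlapped both H3K27ac and Pax5 peaks and had CpG ratios of 0.7 to 1.07, against a median of 0.37 for all regions near no start. Other regions of such width were alike. Of all regions of more than 2000 and up to 4000 bp, 98.0% overlapped H3K27ac and 87.5% Pax5, with a median CpG ratio of 0.84. For those over 4000 bp the values were 99.3%, 97.1% and 0.62. No start is annotated within 10000 bp in GENCODE M1, and later annotations were not used here.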

How the data were processed

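ChIP-seq libraries of H3K4me3, H3K27ac and Pax5 came from RAG-/- µ+ pre-B cells, with 1 library and 1 input each. Input reads were not used here. According to the study's methods, duplicates were removed, adapters trimmed and reads mapped to mm9 with up to 3 best positions allowed. The submitters' processing notes name Bowtie 0.12.9 and MACS 1.4.2, whereas the study's methods name another Bowtie version. The authors deposited H3K4me3 as positions of 25 bp bins without a value, and the step that chose them is not given in the sources used here. The score column deposited with the H3K27ac and Pax5 peaks was not used, only positions. Depth per library is unknown.

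Bins were joined across gaps of up to 100 bp. Transcript starts came from GENCODE M1 on NCBIM37, which is mm9, and every bin ended within its chromosome. A gene was marked if a region lay within 1000 bp of any of its starts. The skew used 2000 bp on each side of the most upstream start, and CpG ratios of genes used 500 bp on each side of the same start. Repeats were measured with 36-mers at every 5 bp. Gene names missing from the annotation were matched by RefSeq synonyms. Genes, lists and families were chosen with earlier results of these data known. They are the lists, the 20 widest regions at coding genes, the 5 widest regions at isolated lincRNA genes and pseudogenes, and the 5 widest regions over 10000 bp from any start. The printed promoters were chosen by CpG ratio, leaving out genes on chromosome 18. Single values of 2 listed genes are not reported here. The scripts were tested on simulated data. Python 3.11.15, numpy 2.4.6, pandas 2.3.3, scipy 1.17.1, numba 0.67.0 and matplotlib 3.10.9 were used. Alternatives were other gaps, windows, sets of starts and sets of genes, of which sources of annotation, receptor families, RefSeq classes, divergent neighbours and settings for the smaller lists were chosen after seeing the data.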

Additional observations from a re-analysis of the deposited data

How the results depend on the processing

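With 1 library and no score, no replicate error, leave-one-out, stricter list or depth limit could be given. No paired analysis was possible because 1 library stands for each antibody and no test was made. The number of regions was 23218 with touching bins only, 16211 with gaps up to 500 bp and 17194 without single bins, all within 1.5 times of 17963, as was each B-lineage count (27 under both alternatives). The median width was 625, 1175 and 1075 bp, respectively. The share of regions near a coding start was 62.6% with touching bins, 64.1% within 500 bp, 70.3% within 2000 bp and 65.2% by midpoint. The share of coding genes was 53.7% within 2000 bp, 50.6% by the most upstream start, 56.9% at starts of few copies and 56.6% without Olfr, Vmn1r and Vmn2r genes. For lincRNA genes it was 55.5% at starts of few copies, 29.2% with no coding start within 5000 bp, 46.3% (automatic), 61.3% (manual) and 34.3% with processed transcripts added. For pseudogenes it was 1.98% within 500 bp, 3.52% within 2000 bp, 3.47% at starts of few copies, 0.953% with no coding start within 5000 bp, 14.4% (automatic), 1.25% (manual) and 1.96% without genes coding in RefSeq. The downstream share was 60.3% within 1000 bp, 54.8% over all starts, 67.2% for genes without neighbours and, reversed, 46.8% for genes with a coding neighbour upstream on the other strand. The difference in median CpG ratio, 0.5, was 0.53 in 200 bp upstream and 0.41 within 1000 bp. Of 63 alternatives 33 stayed within the 95% counting interval or 1.5 times the count, 29 moved further and 1 reversed. The cause was not tested where the set of genes or starts itself did not change. T cell genes fell from 3 to 1 by the most upstream start, erythroid and megakaryocyte genes from 6 to 4 and those of methyltransferase complexes from 14 to 12.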
